A study of Urocitellus parryii with 3 samples.

Results

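miR-142-5p and miR-146a-5p were followed in liver small RNA of Urocitellus parryii, the arctic ground squirrel, whose winter hibernation alternates long torpor with brief rewarming. miR-142-5p is the 5′ arm of a hairpin transcribed in blood-forming cells, and miR-146a-5p is a miRNA that inflammatory signalling through NF-κB induces and that lowers adaptor proteins of that pathway. A distinct read sequence was counted once per library as a member where its first 18 bases were those of the mature form, either from the listed first base or from a start up to 2 bases before or after it. The rule found 519 distinct reads of miR-142-5p (5911 reads) and 90 of miR-146a-5p (321 reads) among 576915 distinct reads (17086590 reads) placed on the genome.

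The groups were early arousal and late torpor, both kept at 4 h light and 20 h dark, and post-reproduction, summer animals at body temperature that served as the non-hibernating control at 16 h light and 8 h dark. The 14 animals (4 in early arousal, 4 in late torpor, 6 in post-reproduction) were pooled by stage into 3 libraries without replicates. Hibernating animals went through at least 4 bouts and were sampled on day 4 of a bout, though for early arousal the meaning of that day is not stated in the labels. Against post-reproduction, the season of hibernation and the photoperiod cannot be told apart. The libraries held 5611673 placed reads for early arousal, 5860476 for late torpor and 5614441 for post-reproduction. With 1 library per stage no test between stages could be made. The 95% intervals given here cover counting error only, and each ratio compares 2 libraries, not 2 stages.

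A miRNA guides the silencing complex to messages that pair with its seed, the bases 2 to 8 from its 5′ end. A start shifted by 1 or 2 bases therefore gives the same hairpin arm another seed and another set of possible targets. The 3′ end is more variable, and nucleotidyl transferases add A or U to it after processing.

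The start forms are shown first because the seed follows from the first base. They were read from the deposited reads, are written 5′ to 3′ in DNA letters, and have the seed in capitals. The forms of miR-142-5p are shown up to base 21, counted from the listed first base, and miR-146a-5p at its listed 22 bases.
miR-142-5p, 2 bases before: cCCATAAAgtagaaagcactact
miR-142-5p, 1 base before: cCATAAAGtagaaagcactact
miR-142-5p, listed start: cATAAAGTagaaagcactact
miR-142-5p, 1 base after: aTAAAGTAgaaagcactact
miR-146a-5p, listed start: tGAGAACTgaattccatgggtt
The 4 forms of miR-142-5p carry 4 different seeds, and none of them is the seed of miR-146a-5p.

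All 519 distinct reads of miR-142-5p were placed at 1 position only, on the minus strand of GeneScaffold 1921, where the listed form spans 128668 to 128688. The reads of miR-146a-5p were placed at 2 positions. Its listed form spans 147990 to 148011 on the plus strand of GeneScaffold 4072, with 22 bases placed. The same reads were also placed on the minus strand of scaffold 146163, first base at 121379, with 20 bases placed. Of its 90 distinct reads, 89 had both positions, the longer one on GeneScaffold 4072, against which the tails given here were read. The genome build is not given in the sources used here and no annotation of these scaffolds was used.

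Most miR-142-5p reads in ground squirrel liver did not begin at the listed base. Over the 3 libraries, 4611 reads (78.0%, interval 76.9 to 79.1) began 2 bases before it and 1047 (17.7%, 16.8 to 18.7) at it. A further 203 reads (3.43%) began 1 base after it, 49 (0.829%) 1 base before it, and 1 read began 2 bases after it. The form with the seed CCATAAA was thus the main one in each library. It stood at 242, 327.3 and 237.8 counts per 1000000 placed reads (CPM) in early arousal, late torpor and post-reproduction. The listed form, with the seed ATAAAGT, stood at 59.9, 77.5 and 45.8 CPM in the same order, from 336, 454 and 257 reads. The form that starts 1 base after had 10.2, 14.5 and 10.9 CPM, and the one that starts 1 base before 3.03, 3.41 and 2.14 CPM. Late torpor was the highest library for each of these 4 forms, although the intervals of the last 2 overlapped between libraries.

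**Figure D1:**
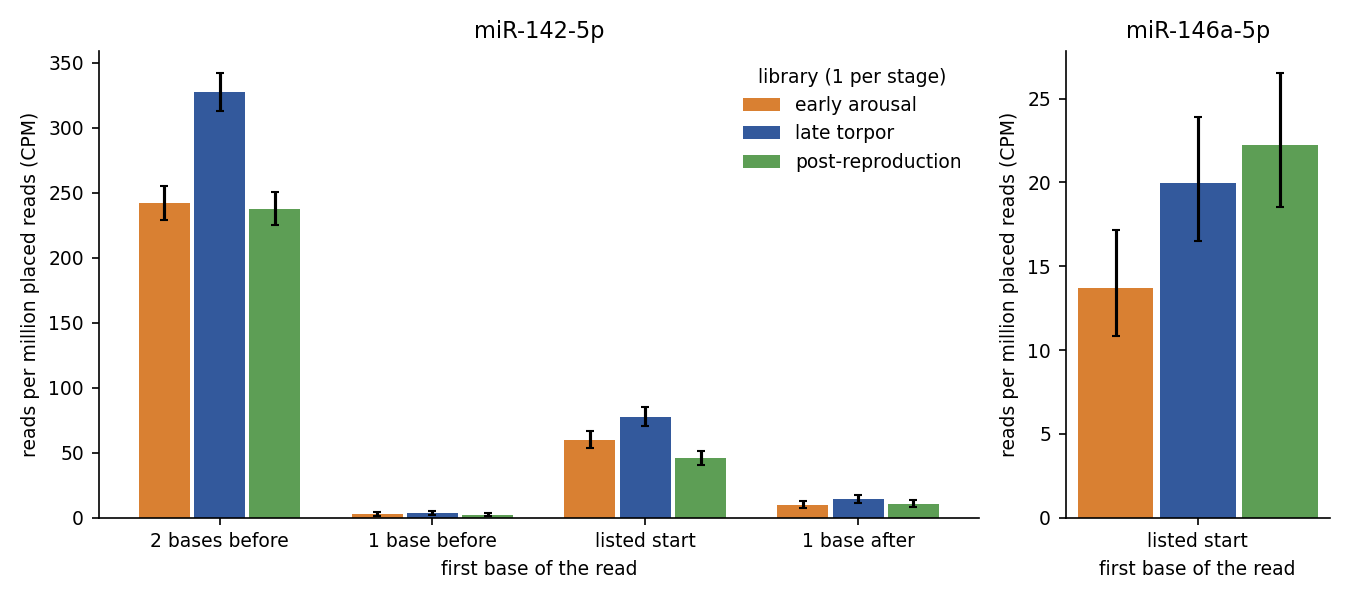
Level of each start form in CPM of placed reads (y axes, linear, different scales) by first base of the read (x axes), for miR-142-5p on the left and miR-146a-5p on the right. Bars are single libraries and error bars exact Poisson 95% intervals; for miR-142-5p the bars of the start 2 bases before reach 242, 327.3 and 237.8 CPM in early arousal, late torpor and post-reproduction.

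The share of shifted starts was 81.0% (79.1 to 82.8) in early arousal, 81.7% (80.1 to 83.2) in late torpor and 84.6% (82.7 to 86.3) in post-reproduction. The listed start took 3.58 percentage points more in early arousal than in post-reproduction (Newcombe interval 1.05 to 6.09) and 2.90 points more in late torpor than in post-reproduction (0.565 to 5.19). Early arousal and late torpor differed by 0.676 points (-1.69 to 3.08), within counting error.

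Shifted starts at this share were uncommon among the miRNAs with many reads in these libraries. Of 45 recognised miRNAs with at least 500 reads in every library, 2 had more than 50% of their reads off the listed base, and the median was 0.452%. The 2 were miR-142-5p (82.1%) and miR-140-3p, a cartilage-enriched miRNA whose reads are often shifted (72.8%). For these shares, earlier starts had to hold all 18 bases from the listed start, and later starts only the shared part of them. miR-101-3p followed at 49.4%. miR-126-3p fell under the limit of 500 reads, but most of its reads were shifted too. It had 207, 189 and 156 shifted reads in early arousal, late torpor and post-reproduction, against 48, 71 and 55 at the listed start. Most of the 45 had shares too small to change by several percentage points, so the size of a change can hardly be compared between them. A change in either direction as large as that of miR-142-5p was seen in 1 of the 45 for late torpor, which was miR-142-5p itself, and in 2, miR-142-5p and miR-140-3p, for early arousal. Between early arousal and late torpor, 14 of the 45 had a change at least as large.

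miR-142-5p at its listed start was higher in the late torpor library. The 454 reads in late torpor against 257 in post-reproduction gave a ratio of 1.69 (1.45 to 1.98), past the 1.5-fold limit used to call a difference. Early arousal over post-reproduction was 1.31 (1.11 to 1.55) and early arousal over late torpor 0.773 (0.669 to 0.892), both short of 1.5-fold. The more abundant form that starts 2 bases before had lower ratios, 1.38 (1.28 to 1.48) for late torpor over post-reproduction and 1.02 (0.943 to 1.10) for early arousal over post-reproduction. Its ratio of early arousal over late torpor was 0.739 (0.689 to 0.793). With all 5 starts counted together, 422.7 CPM in late torpor stood against 296.7 CPM in post-reproduction, a ratio of 1.42 (1.34 to 1.52). For all starts together the call depended on the scaling: the ratio was 1.53 by median-of-ratios size factors over recognised miRNAs and 1.57 by trimmed mean of M-values (TMM) factors, both past 1.5-fold, but 1.40 per read of miR-122-5p. Early arousal had 315.1 CPM over all starts, 1.06 times post-reproduction (0.993 to 1.14) and 0.745 times late torpor (0.701 to 0.793).

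miR-146a-5p was the scarcer of the 2 miRNAs and was lowest in early arousal. At the listed start it had 77 reads in early arousal, 117 in late torpor and 125 in post-reproduction, or 13.7, 20.0 and 22.3 CPM. Early arousal over post-reproduction was 0.616 (0.458 to 0.825), past 1.5-fold. Early arousal over late torpor was 0.687 (0.509 to 0.924), just short of it, and late torpor over post-reproduction was 0.897 (0.691 to 1.16). In the early arousal comparison the call rests on 77 against 125 reads, and among inserts identical to the listed 22 bases, 20 against 16 reads, the ratio was 1.25 (0.616 to 2.58).
Its start was fixed where that of miR-142-5p was not. Of 321 reads, 319 began at the listed base, 1 read in early arousal began 1 base before it and 1 read in late torpor began 2 bases after it. None of the 125 post-reproduction reads was shifted, for which the exact interval reaches 2.91% (3 counts of 125 are 2.40%).

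How often miRNAs differed by 1.5-fold depends on which small RNAs are counted. Among recognised miRNAs with at least 100 reads over the 2 libraries, 8 of 76 (10.5%) passed 1.5-fold in either direction for late torpor over post-reproduction, 14 of 75 (18.7%) for early arousal over post-reproduction and 12 of 76 (15.8%) for early arousal over late torpor. Among 18-base tags of 20 to 24 nt inserts, taken without names, the shares were 47.9% of 332, 47.7% of 344 and 44.6% of 336 in the same order. The tags were counted first, and the recognised miRNAs were put in their place after those shares had been seen, because the tags carry no miRNA names. Read against the tags, a 1.5-fold difference was common and the calls of miR-142-5p and miR-146a-5p do not stand out. Among the recognised miRNAs, miR-142-5p at its listed start ranked 3 of 76 from the highest for late torpor over post-reproduction. Its more abundant form that starts 2 bases before, with a ratio of 1.38 there, was not ranked. miR-146a-5p ranked 69 of 75 for early arousal over post-reproduction.

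**Figure D2:**
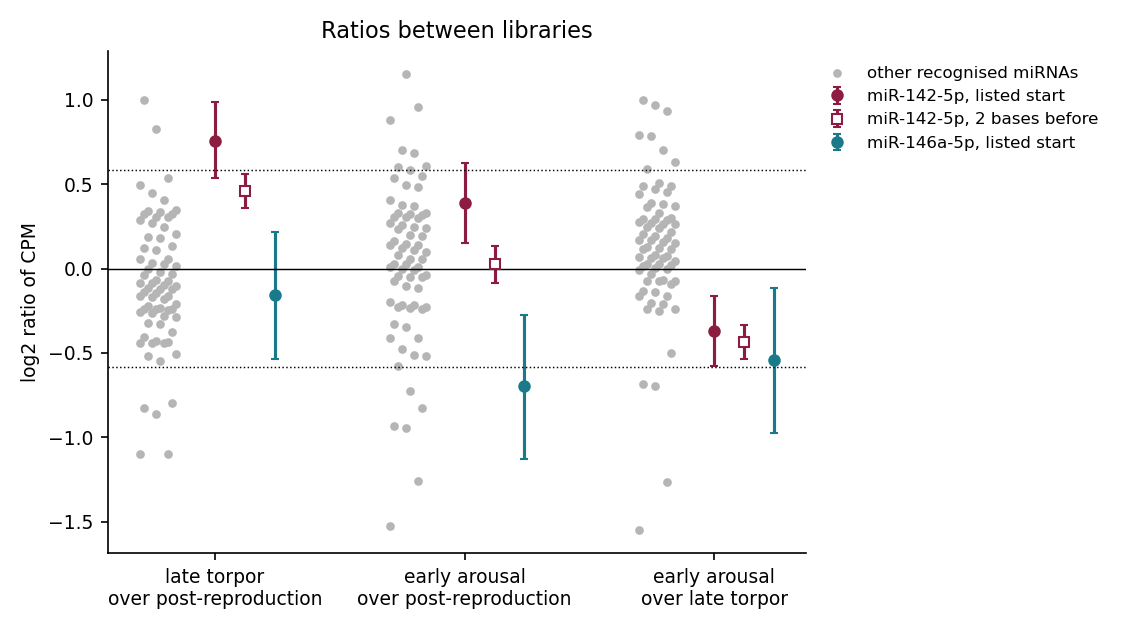
Log2 ratio of CPM (y axis) for the 3 pairs of libraries (x axis). Grey points are the other recognised miRNAs with at least 100 reads over the pair, coloured points the 2 miRNAs with exact 95% intervals, the open square the form of miR-142-5p that starts 2 bases before, and dotted lines 1.5-fold; the listed start of miR-142-5p lies above the upper line for late torpor over post-reproduction (1.69) and miR-146a-5p below the lower line for early arousal over post-reproduction (0.616).

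The scaling moved these ratios as well. Against placed reads, the median recognised miRNA lay at a log2 ratio of -0.11 for late torpor over post-reproduction, 0.08 for early arousal over post-reproduction and 0.13 for early arousal over late torpor. Relative to the other miRNAs, by median-of-ratios size factors, miR-142-5p stood at 1.82, 1.25 and 0.688 and miR-146a-5p at 0.964, 0.590 and 0.612 for the 3 pairs, so that miR-146a-5p then also passed 1.5-fold for early arousal over late torpor. The same factors changed the split of recognised miRNAs past 1.5-fold for early arousal over late torpor to 5 higher and 6 lower, in place of 8 higher and 4 lower. For late torpor over post-reproduction it became 5 and 5 in place of 3 and 5, and for early arousal over post-reproduction 5 and 8 in place of 7 and 7.

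Other leukocyte miRNAs had few placed reads. Of 8 listed for leukocytes and inflammation, 6 had reads at the listed start and 2, the miRNAs described here, had at least 100. miR-155-5p, induced on activation of lymphocytes and macrophages, had 9, 12 and 14 reads in early arousal, late torpor and post-reproduction, and miR-223-3p, a miRNA of neutrophils and monocytes, had 6, 12 and 14. miR-150-5p, of mature lymphocytes, had 1 read in post-reproduction and none in the other 2 libraries. miR-146b-5p and miR-342-3p had no placed read, under a limit of 0.535, 0.512 and 0.534 CPM that 3 counts set in the 3 libraries. Only placed reads were counted, so a miRNA absent from the liver and one whose reads were not placed cannot be told apart. The summed level of the list at the listed starts was 76.5, 101.7 and 73.2 CPM, most of it miR-142-5p. The late torpor peak of this sum was that of miR-142-5p. miR-146a-5p, miR-155-5p and miR-223-3p were instead highest in post-reproduction. Their ratios of late torpor over post-reproduction were 0.897, 0.821 and 0.821, all within counting error. That sum leaves out shifted starts: over all 5 starts miR-142-5p alone had 315.1, 422.7 and 296.7 CPM.

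Erythroid miRNAs, like miR-142-5p but unlike miR-146a-5p, were highest in the late torpor library, 2 of 3 by more than 1.5-fold over post-reproduction. Their summed level at the listed start over 3 of 3 listed was 136.7 CPM in early arousal, 272 in late torpor and 171.3 in post-reproduction. For late torpor over post-reproduction, miR-451a, processed by Argonaute in the erythroid lineage, had a ratio of 2.00 (1.76 to 2.28), its cluster partner miR-144-3p 1.78 (1.40 to 2.26) and miR-486-5p, abundant in red cells, 1.25 (1.11 to 1.41). In early arousal over post-reproduction the 3 ratios were 1.24, 0.606 and 0.519. miR-142-5p had 1.31 there at its listed start and 1.06 over all starts. In early arousal over late torpor the erythroid ratios were 0.622, 0.341 and 0.416, all past 1.5-fold lower, against 0.773 for the listed start of miR-142-5p. Their part in the level of miR-142-5p was not tested. In whole tissue, more blood cells and more of a miRNA per cell cannot be told apart. Endothelial miRNAs at the listed start summed to 31.5, 34.1 and 27.6 CPM in early arousal, late torpor and post-reproduction. That sum leaves out shifted starts, which for miR-126-3p had 207, 189 and 156 reads against 48, 71 and 55 at the listed start. Its listed reads were thus most numerous in late torpor, but within counting error. The ratio was 1.24 (0.858 to 1.79) for late torpor over post-reproduction and 0.706 (0.479 to 1.03) for early arousal over late torpor. Its shifted reads were most numerous in early arousal, for which no interval was computed. Mesenchymal and stellate miRNAs at the listed start summed to 4422, 3166 and 4023 CPM and were lowest in late torpor. The hepatocyte miRNA miR-122-5p, which defines the tissue, took 724015, 762563 and 749121 CPM. Of the 5 listed hepatocyte miRNAs, 2 had reads at the listed start, and none was placed there for miR-148a-3p, miR-194-5p and miR-192-5p.

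The miRNAs with the nearest pattern over the 3 libraries were picked from 80 recognised ones by the distance between centred log2 levels. For the listed start of miR-142-5p they were miR-93-5p, of a cluster related to miR-17-92, at a distance of 0.163, miR-451a at 0.233 and miR-16-5p, of the miR-15/16 family, at 0.295. miR-93-5p had 88.7, 102.4 and 70.5 CPM in early arousal, late torpor and post-reproduction. For miR-146a-5p they were miR-744-5p at 0.206, miR-30d-5p at 0.223 and miR-140-3p at 0.337. miR-744-5p had 46.3, 55.1 and 69.1 CPM. A pattern over 3 libraries is a description only.

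The counted 3′ ends of miR-142-5p differed between its starts. A read had to share 18 bases from its own start. Ends at base 18 could therefore be counted for the start 2 bases before but not for the start 1 base after. Part of the difference is thus set by the counting rule. Counted from the listed first base, inserts of the form that starts 2 bases before ended mostly at base 19 (46.8%), 18 (29.0%) or 20 (20.0%), that is at lengths of 20 to 22 nt. Inserts with the listed start were spread over bases 19 (25.4%), 20 (26.1%) and 21 (25.8%). The form that starts 1 base after ended at base 23 in 83.5% of 194 inserts. The commonest inserts show this.
2 bases before, 21 nt: cCCATAAAgtagaaagcacta
listed start, 19 nt: cATAAAGTagaaagcacta
1 base after, 22 nt: aTAAAGTAgaaagcactactaa
They had 588, 861 and 611 reads, 88, 113 and 53 reads, and 36, 64 and 49 reads in early arousal, late torpor and post-reproduction. The ends of the form that starts 2 bases before hardly differed between libraries: 45.5%, 47.0% and 47.8% of its inserts ended at base 19 in the same order.

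**Figure D3:**
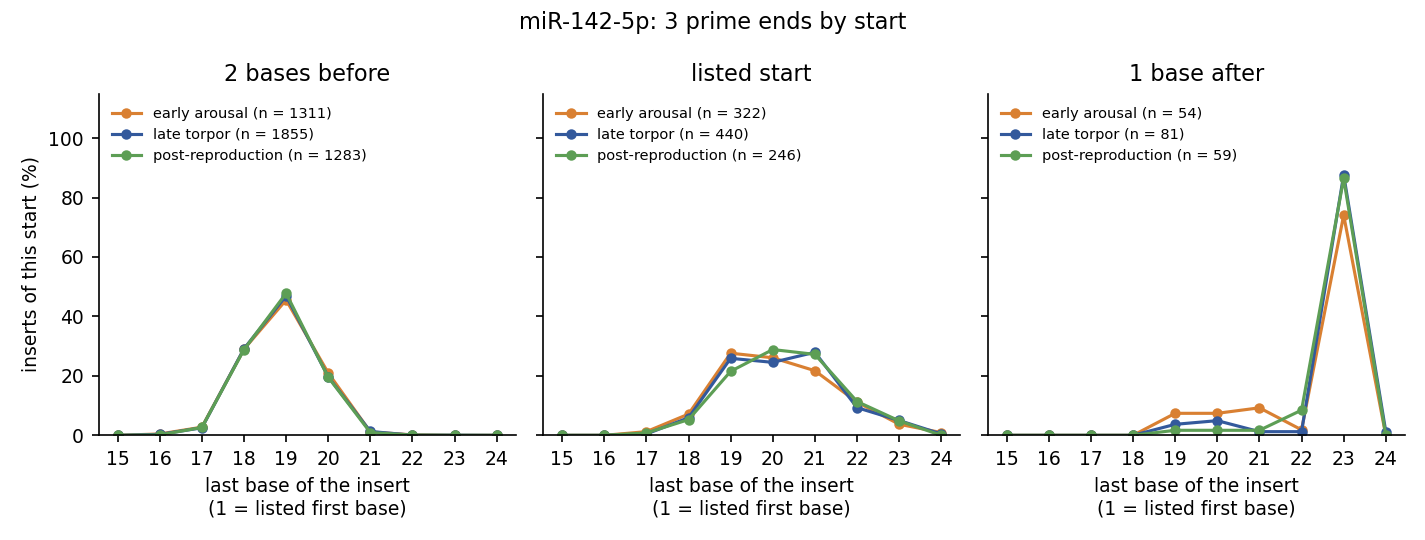
Share of miR-142-5p inserts (y axis, percent of inserts of that start) by their last base (x axis, counted from the listed first base), for the 3 main starts, with one line per library. The start 2 bases before peaks at base 19 (46.8% over the 3 libraries), the listed start is flat over bases 19 to 21, and the start 1 base after peaks at base 23 (83.5%).

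Tails of untemplated A were more frequent on miR-142-5p in the early arousal and late torpor libraries than in the post-reproduction library. Inserts that ended in A not covered by the locus made up 7.57% (6.36 to 8.93) in early arousal, 6.35% (5.41 to 7.40) in late torpor and 4.06% (3.15 to 5.15) in post-reproduction over all starts. At the listed start the shares were 12.1% (39 of 322, 8.76 to 16.2), 10.9% (48 of 440, 8.15 to 14.2) and 4.88% (12 of 246, 2.55 to 8.37). At the start 2 bases before they were 6.56% (5.28 to 8.04), 5.45% (4.46 to 6.58) and 3.98% (2.97 to 5.19). At each of these starts the intervals of late torpor and post-reproduction overlapped. The direction, more A-only tails than in post-reproduction, was shared by most miRNAs. Of 41 recognised miRNAs with at least 500 inserts in every library, 36 had more A-only tails in early arousal than in post-reproduction and 31 more in late torpor than in post-reproduction, with median differences of 0.979 and 1.02 percentage points. The median shares were 9.04%, 9.53% and 7.82% in early arousal, late torpor and post-reproduction.

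miR-146a-5p was tailed far more often. Untemplated A alone ended 29.6% (19.3 to 41.6), 37.1% (27.9 to 47.1) and 38.3% (29.1 to 48.2) of its inserts at the listed start in early arousal, late torpor and post-reproduction, with overlapping intervals. Any untemplated end was found in 42.3% (30.6 to 54.6) in early arousal, 55.2% (45.2 to 65.0) in late torpor and 68.2% (58.5 to 76.9) in post-reproduction, so early arousal was lowest. At its own listed start miR-142-5p had 17.7% (13.7 to 22.3), 17.5% (14.1 to 21.4) and 13.8% (9.77 to 18.8). That was lowest in post-reproduction, but with overlapping intervals. The medians of the 41 recognised miRNAs were 30.3%, 29.7% and 26.1%, and 36 of them had more untemplated ends in early arousal than in post-reproduction. The adapter was not found in 7.79%, 10.3% and 14.4% of miR-146a-5p reads, whose ends were not read. Other tailed inserts with at least 20 reads were 23 nt long. The one tailed with A had 7, 21 and 8 reads, most in late torpor, and the one tailed with T 3, 6 and 11. The exact 22-base form had 20, 24 and 16 reads, and the commonest tailed insert 9, 12 and 19 reads.
untailed, 22 nt: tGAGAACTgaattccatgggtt
tailed with A, 24 nt: tGAGAACTgaattccatgggttga

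**Figure D4:**
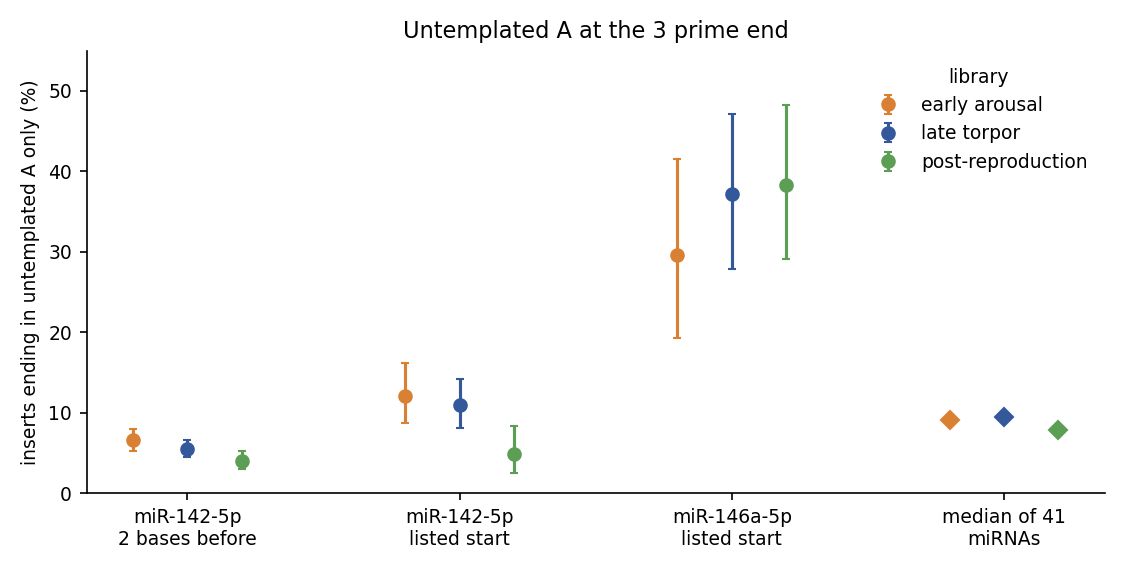
Share of inserts that end in untemplated A only (y axis, percent), by start form and library. Points are single libraries with exact binomial 95% intervals and diamonds the median of 41 recognised miRNAs; miR-146a-5p lies between 29.6% and 38.3%, and the listed start of miR-142-5p is at 12.1%, 10.9% and 4.88% in early arousal, late torpor and post-reproduction.

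The opposite arms were nearly absent from the table. At the miR-142 locus 20 reads began at base 37, 38 or 40 of the same strand, 7, 10 and 3 of them in early arousal, late torpor and post-reproduction. The commonest start, at base 38, had 6, 8 and 1 reads, and its commonest insert, from the 3′ arm, was gTAGTGTTtcctactttatgga. At the miR-146a locus on GeneScaffold 4072 no read of the 3′ arm was found, and 1 early arousal read began 20 bases before the listed first base.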

How the data were processed

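Small RNA of 18 to 30 nt was cut from a gel from about 10 µg of mixed RNA per stage and amplified by 15 PCR cycles, per the labels' protocols. The authors deposited 1 table of genome positions whose entries, per the file headers, hold the read sequence with its read count and stage; counts are unscaled and 30-base reads carry the placed part (at least 18 bases) in capitals. The sources used here name neither the aligner nor the genome build. The 866747 lines hold 4218154 entries; a read had the same count at every position and was counted once per library.

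The 123 miRNAs, these 2 included, were recognised by leading keys of 12 to 18 bases written from general knowledge and not checked against a database; full sequences are those of the reads. Of them 111 had a read and 81 at least 100. Keys of miR-192-5p, miR-194-5p, miR-148a-3p, miR-146b-5p and let-7e-5p were lengthened after shorter ones had picked other sequences. The members, lists and tests were chosen with earlier results of these data known. Levels are CPM of placed reads, the planned scaling without a deposited miRNA list. Features differing by at least 1.5-fold with at least 100 reads were called. Named miRNAs were the listed ones with at least 100 reads, plus the 3 nearest patterns of each member; others were named after their values were seen. The background was first computed on 445 unnamed tags and then on recognised miRNAs, after the tag result had been seen; both are given. The adapter was searched for inserts of 16 to 25 nt. PCR reads carry no molecular identifiers. Intervals of ratios are Clopper-Pearson (exact conditional binomial), of shares exact binomial and of differences of shares Newcombe (Python 3.11.15, numpy 2.4.6, scipy 1.17.1, statsmodels 0.14.6; figures by matplotlib 3.10.9). The calling step was tested on simulated data.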

Additional observations from a re-analysis of the deposited data

How the results depend on the processing

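Of 78 ratios recomputed under alternatives, 56 stayed within the counting interval of the reported value, and so did 21 of 22 shifted-start shares and 6 of 6 A-only shares. These counts include values that could not move. All miR-142-5p reads had 1 position, so leaving out multiply placed reads changed none of its ratios or shares. With the 5 starts counted together, miR-142-5p had 1.42 for late torpor over post-reproduction, no longer past 1.5-fold with placed reads, and 1.06 for early arousal over post-reproduction. All 5 starts combined with another scaling were added after seeing the data. In the order median of ratios, miR-122-5p, TMM (trimmed mean of M-values), TMM over unnamed tags and median of ratios over unnamed tags, they gave 1.53, 1.40, 1.57, 1.61 and 1.55 for late torpor over post-reproduction, past 1.5-fold in 4 of 5, then 1.02, 1.10, 1.02, 0.889 and 0.841 for early arousal over post-reproduction, and 0.664, 0.785, 0.652, 0.552 and 0.543 for early arousal over late torpor, past 1.5-fold in 4 of 5. With inserts identical to the listed sequence only, miR-142-5p had 0.952 for early arousal over post-reproduction and 0.560 for early arousal over late torpor, the second past 1.5-fold, while miR-146a-5p had 1.44 for late torpor over post-reproduction and, reversed, 1.25 for early arousal over post-reproduction, from 16 to 24 reads per library. With 20 shared bases, miR-142-5p had 1.10 for early arousal over post-reproduction. This setting leaves out shorter inserts and those whose untemplated tail begins by base 20. Scaling to the unnamed tags, added after seeing the data, gave miR-142-5p 1.10 (TMM) and 1.04 (median of ratios) for early arousal over post-reproduction, and 0.573 and 0.563 for early arousal over late torpor, both past 1.5-fold; miR-146a-5p had 0.5 by median of ratios for early arousal over late torpor. The causes of these changes were not tested. Over all alternatives, late torpor over post-reproduction ran between 1.40 and 1.91 for miR-142-5p, and early arousal over post-reproduction between 0.488 and 1.25 for miR-146a-5p; 14 of the 78 changed side of the 1.5-fold limit.

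The count of features past 1.5-fold depended on the feature set: 159 of 332 unnamed tags against 8 of 76 recognised miRNAs passed 1.5-fold for late torpor over post-reproduction, 164 of 344 against 14 of 75 for early arousal over post-reproduction, and 150 of 336 against 12 of 76 for early arousal over late torpor. Scaling to placed reads is the reported scaling, so it gives no alternative value. Without multiply placed reads miR-146a-5p kept 1 read, so no ratio could be had, and its shifted share in early arousal became 100%. No paired analysis was possible because each stage is 1 library. Depth limits miR-146a-5p most, with 77 to 125 reads per library.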
